A study of Mus musculus with 12 samples.

Results

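The kinesin motor genes examined here were the 36 genes of a 56748-gene table whose symbols are Kif followed by a number and at most a short suffix, with Kif3a, Kif3b and Kif17 set aside. By role they were 13 motors of cargo transport, 12 motors of mitosis and cytokinesis, and 11 other motors, a group that holds microtubule-depolymerising, ciliary and less well studied members. RNA had been sequenced from mouse retina in 12 libraries that form 4 groups of 3. The controls were RiboTag;Shp2fl/+;i75-Rod-Cre littermates (Het), which keep 1 intact allele of Ptpn11, the gene for the phosphatase Shp2. The knockouts (KO) were RiboTag;Shp2fl/fl;i75-Rod-Cre mice. Both genotypes carried Cre expressed from a rod-specific promoter and a Cre-activated HA tag on the ribosomal protein Rpl22, and all mice were 2 weeks old. For each genotype, mRNA on HA-tagged ribosomes was captured by TRAP (translating ribosome affinity purification; rods) and total RNA came from the lysate of the whole retina (retina). The titles name the controls wt, while their genotype is given as heterozygous.

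Kinesins are ATP-driven motors that walk along microtubules, mostly towards the plus end. Kif5 (kinesin-1) and the Kif1 and Kif13 groups (kinesin-3) carry mitochondria, vesicles and membrane proteins in axons and dendrites, and photoreceptors rely on kinesins to move material towards the synapse and, through kinesin-2, into the outer segment. Other kinesins build and move the mitotic spindle, and rods of the age studied no longer divide.

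The deposited values had nearly equal totals within each fraction, and appear to have been scaled. Totals were 14525527 to 14527992 in retina and 16263948 to 16265259 in rods, and the pattern of low integers placed the reads behind them at an estimated 9980000 to 19220000 and 11900000 to 25300000. At that depth, 3 reads are 1.56e-05% to 3.01e-05% of a retina library and 1.19e-05% to 2.52e-05% of a rod library, counting error only. Ptpn11 was 2511, 2439 and 2431 in Het rods, compared with 1735, 2139 and 1971 in KO rods, so the libraries did not overlap, but the log2 fold change of -0.23 (SE 0.09) did not pass the test (adjusted p = 0.070, limma). The rod markers Nrl and Gnat1 were higher in Het rods than in Het retina, with log2 fold changes of 1.83 (SE 0.11) and 1.96 (SE 0.13). Lens genes varied from 0.000778% to 4.92% among retina libraries. The labels do not say that replicates came from separate mice, so the p-values below measure the spread between libraries, which may be technical.

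Within the 36 members, RNA in both fractions was mostly that of cargo motors. Levels of different genes were compared as TMM-scaled values per kb of transcript. Shares and ranks count these members only and leave out other kinesins, such as Kif3a and Kif3b. Cargo motors held 90.4% ± 1.7 (SD, n = 3) of the summed kinesin level in Het retina and 88.7% ± 0.86 in Het rods, while motors of mitosis and cytokinesis held 2.90% ± 0.50 and 2.88% ± 0.34. Kif1b, a kinesin-3 motor that carries synaptic vesicle precursors and mitochondria, stood first in all 12 libraries. Its level in Het retina was 1824, 1648 and 1561, and in Het rods it was 3863, 3801 and 3334. Kif1b alone thus held 31.5% ± 2.2 of the summed kinesin level in Het retina and 55.8% ± 0.62 in Het rods.

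Below Kif1b the order differed between the fractions. In Het retina, Kif1a (681 ± 179 per kb), another motor of synaptic vesicle precursors, came next, followed by the neuronal kinesin-1 motor Kif5c (447 ± 24.6) and by Kif21a (439 ± 32.8), a regulator of microtubule growth. Kif1b and Kif1a stood apart from each other and Kif1a stood apart from Kif5c, whereas every pair of neighbours from Kif5c through Kif21a, Kif5a, Kif21b, Kif5b and Kif2a to Kif13a had overlapping libraries. In Het rods the members after Kif1b were Kif21a (533 ± 50.5), Kif2a (462 ± 42.6) and Kif1a (436 ± 49.4). Kif1b stood apart from Kif21a, and the neighbours from Kif21a through Kif2a, Kif1a and Kif5b to Kif21b overlapped. The level of Kif13a, a motor of endosomal cargo, was 213 ± 11.8 in Het rods and lay below all libraries of Kif21b.

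At the other end, 6 members reached a value of 10 in no library: Kif12 and Kif2b were at 0 in all 12, and Kif2c, Kif18b, Kif19b and Kif28 never exceeded 3. A value of 0 allows a share of up to 3 reads, as given above. Together with the low genes Kif6, Kif7, Kif23 and Kif26a, these left 26 members that could be tested between rods and retina. Kif26a, a kinesin without motor activity, was 11, 23 and 6 in Het retina, 4, 7 and 29 in KO retina, 1, 0 and 0 in Het rods and 0 in each KO rod library. Kif6, a ciliary motor, was 8, 5 and 9 in Het retina, 1, 11 and 11 in KO retina, and above 0 in only 1 of 6 rod libraries, with a value of 2. Kif23, which works in cytokinesis, lay between 4 and 10 in all 12 libraries.

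**Figure D1:**
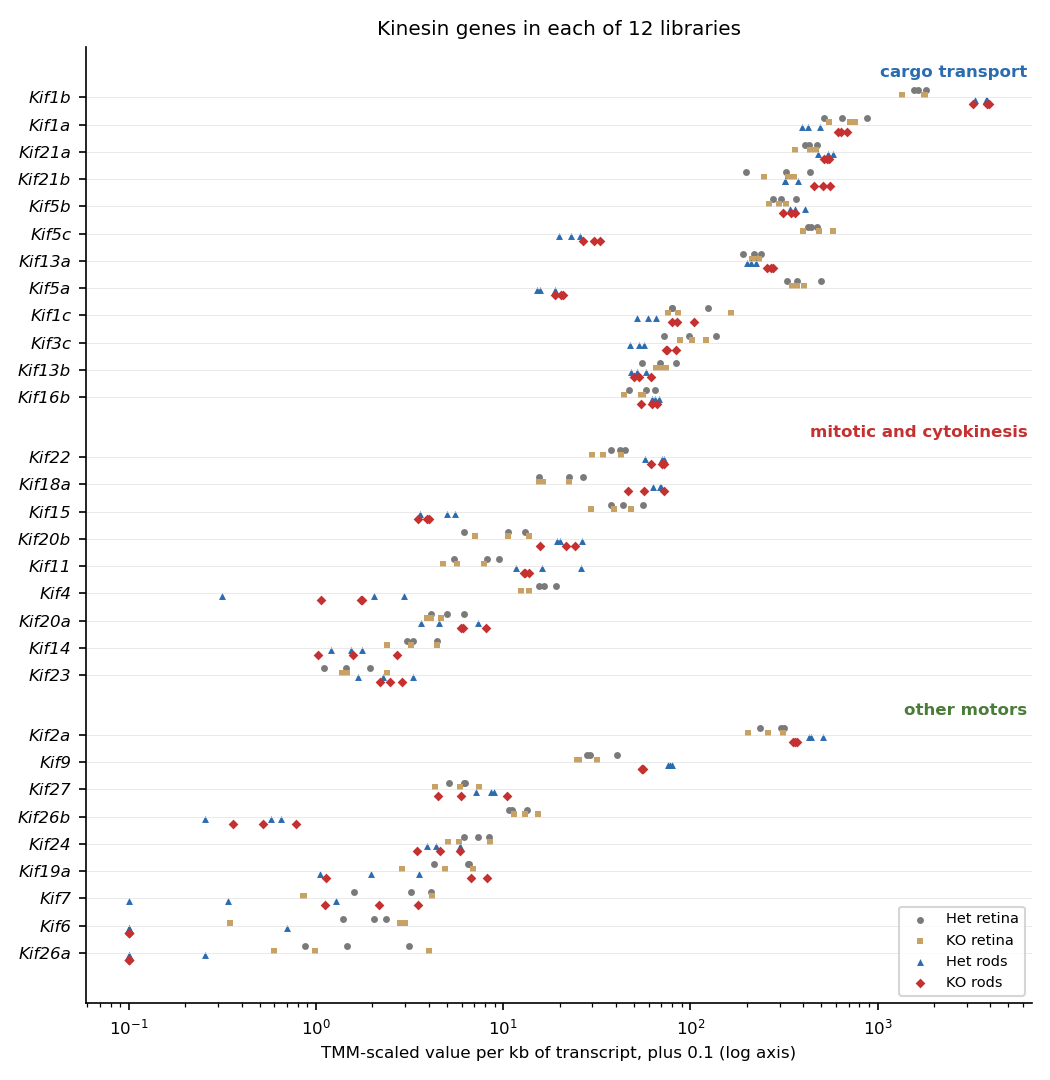
Values per kb of transcript (TMM-scaled, plus 0.1, log axis) of the 30 kinesin genes that reach a deposited value of 10 in at least 1 library, with 1 point for each of 12 libraries. Kif1b is highest in every library, and Kif5a, Kif5c, Kif15, Kif4 and Kif26b lie far lower in all 6 rod libraries than in all 6 retina libraries.

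The comparison of Het rods with Het retina asks which kinesin mRNAs are carried by rod ribosomes relative to the whole tissue. Of the 26 members tested, 7 were higher and 10 lower in rods (called where limma's adjusted p was under 0.05 and the log2 fold change exceeded 0.5 in size), whereas 59.0% of all genes tested passed (22.7% higher and 36.4% lower). For 20 of the 26 members the libraries of the 2 groups did not overlap, beside 68.9% of all genes. The median log2 fold change was -0.02 for the members and -0.08 for all genes. In such bulk samples, fewer cells of a type and less RNA per cell cannot be told apart. Rods were ribosome-bound mRNA and retina was total RNA, so ribosome binding and capture cannot be told apart from RNA level either.

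Among cargo motors the largest differences were those of the neuronal kinesin-1 heavy chains. Kif5a had deposited values of 2747, 3412 and 2313 in Het retina and 92, 109 and 88 in Het rods. Kif5c had 3419, 3283 and 3647 in Het retina and 128, 144 and 163 in Het rods. Each retina library of these motors thus held many times the value of any rod library, and the log2 fold changes were -4.56 (SE 0.18, adjusted p = 5.3e-07) for Kif5a and -4.28 (SE 0.13, adjusted p = 3.0e-07) for Kif5c. The third heavy chain, Kif5b, which most cell types express, had 2137, 1821 and 2483 in Het retina and 2321, 1990 and 1905 in Het rods, with overlapping groups and a log2 fold change of 0.23 (95% interval -0.08 to 0.55). Within the Kif5 family, Kif5b accordingly held 27.2% ± 4.3 (SD, n = 3) of the level per kb in Het retina and 90.3% ± 1.5 in Het rods. The shares of Kif5a and Kif5c were 34.3% ± 6.5 and 38.5% ± 2.2 in Het retina, against 4.05% ± 0.61 and 5.63% ± 1.1 in Het rods.

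Markers of most other retinal cells moved in the same direction. All tested markers of Müller glia (median -4.88, log2), microglia (-4.40), endothelium (-3.54) and cones (-1.08) were lower in Het rods, beside 36.4% of all genes. Of 6 bipolar markers, 5 were lower and the other was at 0.04, and 0 of 6 lens markers were called. All 6 ganglion cell markers examined were lower in Het rods (median -5.16, log2) and their summed share was 0.0647% to 0.0786% in Het retina and 0.00111% to 0.00165% in Het rods. All 6 amacrine cell markers were lower too (median -4.85), with sums of 0.0542% to 0.0566% in Het retina and 0.00255% to 0.00282% in Het rods. None of these 12 ganglion cell and amacrine markers was at 0 in all Het rod libraries. The part of other cells in the kinesin differences was not tested.

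The Kif1 family was shifted the other way for its leading member. Kif1b had 21812, 18397 and 17920 in Het retina and 37183, 35593 and 31668 in Het rods, with no overlap and a log2 fold change of 1.13 (SE 0.11, adjusted p = 3.8e-05). Kif1a had 6221, 7815 and 4787 in Het retina and 3263, 3685 and 3007 in Het rods, all rod values lying below the retina values. Its log2 fold change was -0.62 (SE 0.19, adjusted p = 0.019). Kif1c, which carries integrin-bearing vesicles and dense-core vesicles, had 623, 909 and 596 against 327, 400 and 369, with a log2 fold change of -0.65 (SE 0.20, adjusted p = 0.020). The calls of Kif1a and Kif1c were each lost when Het retina replicate 2 was left out (log2 fold changes -0.39 and -0.41) and when Het rod replicate 1 (-0.60 and -0.57) or 3 (-0.55 and -0.66) was left out, and that of Kif1a also without Het retina replicate 1 (-0.53). Kif1b held 68.7% ± 5.5 of the family level per kb in Het retina and 88.1% ± 0.91 in Het rods, and Kif1a held 27.5% ± 4.8 and 10.5% ± 0.76.

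Kif3c, a neuronal kinesin-2 subunit that pairs with Kif3a, had 775, 1010 and 553 in Het retina and 303, 349 and 334 in Het rods. Its groups did not overlap, and the log2 fold change was -0.92 (SE 0.22, adjusted p = 0.0063). The remaining cargo motors did not pass the test. Kif21a was higher in every rod library than in any retina library after scaling, with a log2 fold change of 0.28 (95% interval 0.01 to 0.54, adjusted p = 0.068). Kif21b had a log2 fold change of 0.15 (interval -0.43 to 0.74), Kif13a of -0.02 (-0.30 to 0.26), Kif13b of -0.38 (-0.78 to 0.02) and Kif16b, an endosomal motor, of 0.21 (-0.15 to 0.57). Kif13a held 76.0% ± 1.8 of the Kif13 family level per kb in Het retina and 80.2% ± 0.56 in Het rods, and Kif21a held 58.8% ± 10.1 and 61.1% ± 2.8 of the Kif21 family level.

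**Figure D2:**
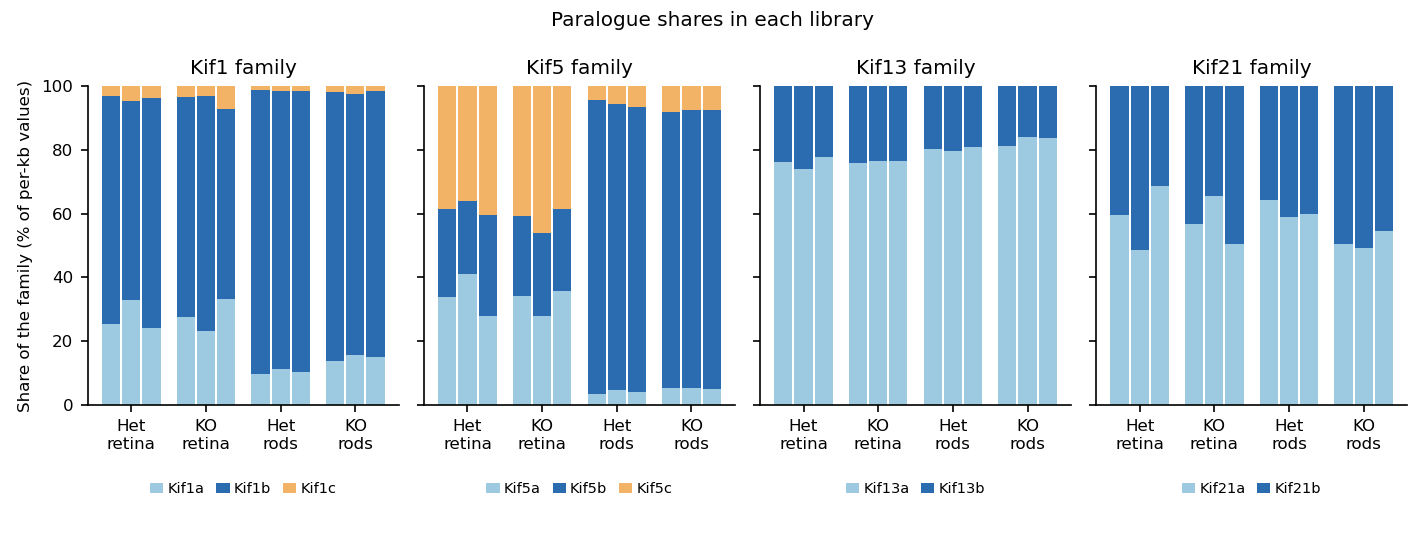
Share of each paralogue in the summed per-kb level of its family (%), with 1 bar per library and 3 bars per group. Kif5b fills 89.3% to 92.0% of the Kif5 family in Het rods and 22.8% to 31.4% in Het retina, and Kif1b takes a larger share of the Kif1 family in rods than in retina.

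The motors of mitosis and cytokinesis were low in both fractions and split in direction. Of 8 tested, 4 were higher and 3 lower in Het rods, beside 22.7% and 36.4% of all genes. Kif18a, which damps chromosome movements at the metaphase plate, had 88, 57 and 101 in Het retina and 218, 194 and 217 in Het rods. The groups lay apart, with a log2 fold change of 1.65 (SE 0.23, adjusted p = 0.00030). Kif20b, a motor of late cytokinesis, had 84, 37 and 66 against 137, 102 and 100 (log2 fold change 1.17, SE 0.30, adjusted p = 0.0089). Kif11, which slides spindle microtubules apart, had 53, 28 and 44 against 118, 51 and 72, the widest spread among the rod-enriched motors. Its log2 fold change of 1.15 (SE 0.35, adjusted p = 0.019) was 0.84 and no longer called without Het rod replicate 1. Kif22, which pushes chromosome arms, had 110, 97 and 89 against 143, 111 and 139. Its log2 fold change of 0.67 (SE 0.19, adjusted p = 0.015) lost the call without Het rod replicate 1 (0.62) or 3 (0.63).

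Kif15, a spindle motor that also acts in growing axons, went the opposite way, with 316, 199 and 238 in Het retina and 16, 24 and 22 in Het rods, a log2 fold change of -3.20 (SE 0.26, adjusted p = 1.3e-05). The chromosome-associated motor Kif4 had 111, 84 and 92 against 1, 13 and 9, with a value of 1 in Het rod replicate 1. Its log2 fold change was -3.38 (SE 0.57, adjusted p = 0.00093). Kif14, a motor of the midbody, had 45, 29 and 32 against 14, 9 and 12 (log2 fold change -1.19, SE 0.30, adjusted p = 0.0075), and the call was lost without Het retina replicate 1 (-0.94). Kif20a, which recruits cytokinesis factors to the midzone, had 21, 16 and 25 against 25, 15 and 12, and its log2 fold change of -0.01 had an interval of -0.79 to 0.77. Of 12 genes that mark dividing cells, 5 could be tested and 1, Plk1, was higher in Het rods (0.98, adjusted p = 0.023, limma), beside 22.7% of all genes. Their summed share was 0.000874% to 0.00147% in Het retina and 0.000799% to 0.00347% in Het rods, where replicate 3 had a Top2a value of 420 beside 24 and 41 in the other two. Birc5 and Bub1 were at 0 in all 6 rod libraries, and the part of dividing cells in the values of these motors was not tested.

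Among the other motors, Kif9 and Kif2a were higher and Kif26b and Kif19a lower in Het rods. Kif9, a motor of motile cilia, had 151, 101 and 100 in Het retina and 226, 226 and 235 in Het rods, a closely spaced group above all retina libraries. Its log2 fold change was 1.26 (SE 0.20, adjusted p = 0.00058). Kif2a, which removes tubulin from microtubule ends and acts in neurons and in cilium disassembly, had 1890, 1354 and 1872 against 2547, 2152 and 2124 (0.71, SE 0.14, adjusted p = 0.0026). Kif26b, which lacks motor activity and acts in cell adhesion and migration, had 172, 166 and 204 in Het retina and 2, 6 and 7 in Het rods, with a log2 fold change of -4.55 (SE 0.36, adjusted p = 1.2e-05). Kif19a, a depolymerising motor of motile cilia, had 26, 24 and 16 against 6, 3 and 11 (-1.32, SE 0.41, adjusted p = 0.020), a call that was lost without Het retina replicate 1 (-1.13), Het rod replicate 1 (-1.32) or Het rod replicate 2 (-0.98), with the trend in GC content removed (-0.60), and with all 12 libraries in a single fit (-1.32). Kif24, which acts at centrioles, and Kif27, a relative of the Hedgehog regulator Kif7, had log2 fold changes of -0.61 (interval -1.24 to 0.02) and 0.47 (-0.10 to 1.04) and were not called.

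Scaling bore on the weaker differences. With library size alone in place of TMM, the median of all genes moved by -0.43, and 13.6% of calls over all genes were higher in rods against 38.4% with TMM. By that scaling 3 members were higher (Kif18a, Kif1b and Kif9) and 12 lower. Kif11, Kif20b, Kif22 and Kif2a kept positive log2 fold changes of 0.72, 0.74, 0.24 and 0.26 but lost their calls, and Kif24 (-1.02) and Kif13b (-0.82) were called lower.

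The same comparison in KO mice used none of these libraries. There, 7 of 26 members were higher and 5 lower in rods, beside 26.9% and 36.1% of all genes (63.0% in either direction), and for 18 of the 26 the libraries did not overlap, beside 73.0% of all genes. Kif5a (2940, 2531 and 2517 in KO retina, 111, 99 and 110 in KO rods) and Kif5c (3840, 4558 and 2952 against 190, 153 and 181) were again far lower, with log2 fold changes of -4.22 (SE 0.12) and -4.01 (SE 0.16). Kif26b (-4.52, SE 0.32), Kif15 (-3.23, SE 0.25) and Kif4 (-2.88, SE 0.29) were lower as well. Kif18a (1.65, SE 0.24), Kif1b (1.16, SE 0.15), Kif11 (1.10, SE 0.26), Kif9 (1.01, SE 0.18), Kif20b (0.97, SE 0.30) and Kif22 (0.93, SE 0.20) were higher, with the largest adjusted p, 0.017, at Kif20b. The call of Kif20b was lost without KO rod replicate 1 (0.84) or 3 (0.93). Kif21b, not called in Het mice, was higher in rods here (0.70, SE 0.15), while Kif1a (-0.055, SE 0.13), Kif1c (-0.20, SE 0.27), Kif3c (-0.42, SE 0.14), Kif14 (-0.94, SE 0.41), Kif19a (-0.14, SE 0.63) and Kif2a (0.50, SE 0.16) were not called. With library size alone, 2 members (Kif18a and Kif1b) were higher and 11 lower, the median of all genes moved by -0.55, and 12.7% of calls over all genes were higher against 42.8% with TMM. A call in 1 genotype and not in the other does not show a difference, which was tested directly below.

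**Figure D3:**
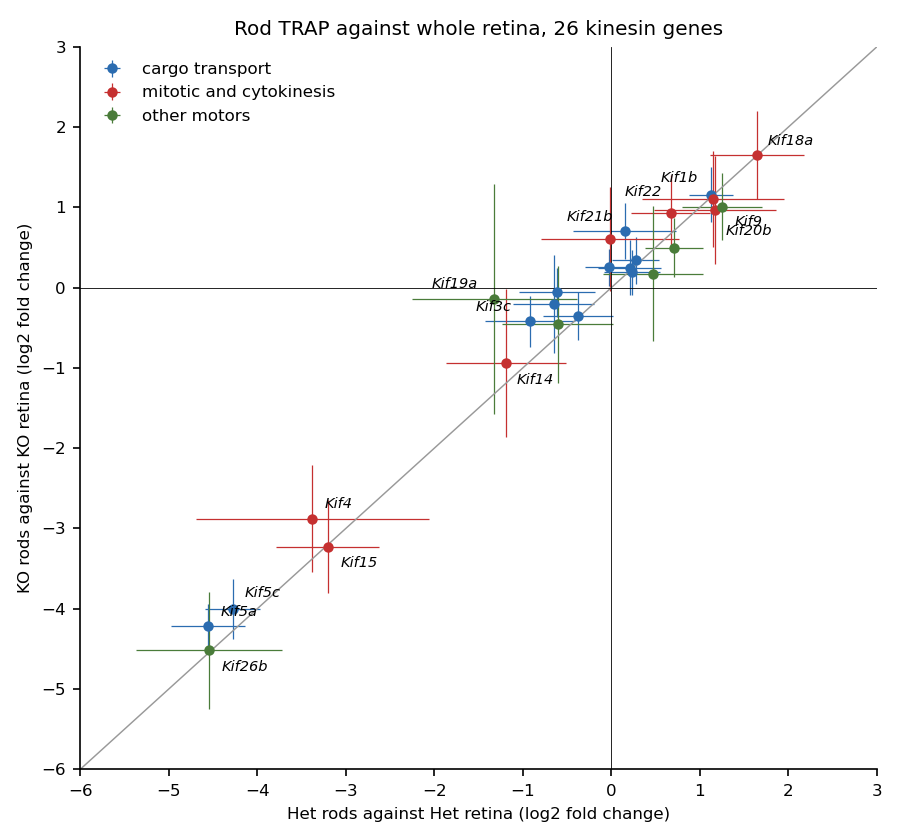
Log2 fold changes of rods against retina in Het mice (horizontal axis) and in KO mice (vertical axis) for 26 kinesin genes, with 95% intervals and colours for the 3 roles; the grey line marks equal values. Kif5a, Kif5c, Kif26b, Kif15 and Kif4 form the group at the lower left, and Kif18a lies at the upper right, at 1.65 in both genotypes.

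The promoters of 4 members that were higher in Het rods and 4 that were lower are shown as examples of both directions. Kif5a, the member with the largest difference, is not among them. RefSeq (GRCm38.p6) gave a start site for 28 of the 36 members in the table used, on chromosomes other than 18, and the 250 bases before it are printed 5′ to 3′ on the gene's strand. Capitals mark TTTGAA (the CHR element of cell cycle genes), CCAAT (the CCAAT box) and TAATCC (the core bound by the photoreceptor factor Crx), each searched on both strands, and no matches of different motifs overlapped in these promoters. The higher members are Kif1b (chr4:149307734-149307983, minus strand), Kif9 (chr9:110476708-110476957, plus), Kif18a (chr2:109280488-109280737, plus) and Kif20b (chr19:34922108-34922357, plus). The lower members are Kif5c (chr2:49619036-49619285, plus), Kif15 (chr9:122950831-122951080, plus), Kif4 (chrX:100625815-100626064, plus) and Kif26b (chr1:178528875-178529124, plus).
Kif1b: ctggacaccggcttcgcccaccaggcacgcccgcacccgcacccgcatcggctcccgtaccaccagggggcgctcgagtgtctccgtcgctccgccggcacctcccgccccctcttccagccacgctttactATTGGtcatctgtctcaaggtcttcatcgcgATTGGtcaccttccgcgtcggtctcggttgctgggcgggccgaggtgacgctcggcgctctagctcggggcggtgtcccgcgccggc
Kif9: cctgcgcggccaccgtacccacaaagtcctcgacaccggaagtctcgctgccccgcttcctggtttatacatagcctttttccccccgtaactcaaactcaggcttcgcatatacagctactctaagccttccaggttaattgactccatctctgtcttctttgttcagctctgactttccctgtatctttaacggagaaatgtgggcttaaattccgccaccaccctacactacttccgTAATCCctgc
Kif18a: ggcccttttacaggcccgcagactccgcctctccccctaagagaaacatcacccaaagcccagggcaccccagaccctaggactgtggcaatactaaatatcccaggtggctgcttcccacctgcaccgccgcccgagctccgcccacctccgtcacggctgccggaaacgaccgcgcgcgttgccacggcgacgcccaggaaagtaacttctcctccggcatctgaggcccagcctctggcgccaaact
Kif20b: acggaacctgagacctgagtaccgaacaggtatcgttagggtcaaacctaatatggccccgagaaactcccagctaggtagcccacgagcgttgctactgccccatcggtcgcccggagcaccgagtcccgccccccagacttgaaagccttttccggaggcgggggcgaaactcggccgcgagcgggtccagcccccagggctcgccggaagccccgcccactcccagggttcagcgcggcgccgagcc
Kif5c: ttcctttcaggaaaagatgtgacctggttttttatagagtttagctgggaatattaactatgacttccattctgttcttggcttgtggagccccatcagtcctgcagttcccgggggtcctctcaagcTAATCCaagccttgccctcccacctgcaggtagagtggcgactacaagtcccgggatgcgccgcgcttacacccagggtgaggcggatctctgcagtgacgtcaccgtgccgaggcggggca
Kif15: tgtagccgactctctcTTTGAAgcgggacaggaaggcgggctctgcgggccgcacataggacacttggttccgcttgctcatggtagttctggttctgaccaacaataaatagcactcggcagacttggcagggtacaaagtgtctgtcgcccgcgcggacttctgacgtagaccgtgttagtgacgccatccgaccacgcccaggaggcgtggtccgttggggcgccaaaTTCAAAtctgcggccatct
Kif4: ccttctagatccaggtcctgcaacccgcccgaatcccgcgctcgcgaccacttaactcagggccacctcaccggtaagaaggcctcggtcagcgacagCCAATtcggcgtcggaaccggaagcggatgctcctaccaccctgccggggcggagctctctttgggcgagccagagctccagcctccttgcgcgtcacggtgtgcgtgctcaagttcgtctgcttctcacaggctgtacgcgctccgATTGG
Kif26b: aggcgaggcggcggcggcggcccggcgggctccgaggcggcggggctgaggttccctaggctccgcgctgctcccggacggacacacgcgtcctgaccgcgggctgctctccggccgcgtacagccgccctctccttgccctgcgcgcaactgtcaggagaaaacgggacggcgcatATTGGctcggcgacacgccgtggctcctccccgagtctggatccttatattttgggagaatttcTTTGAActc

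TAATCC stood 10 bases before the start of Kif9 and 122 bases before that of Kif5c, genes that differed between the fractions in opposite directions. With 1 window counted for each gene, it was found in 1 of 7 higher members and 1 of 8 lower members, and in 6.38% of 27025 genes. TTTGAA occurred in 2 of 7 higher members (Kif11 and Kif22) and 3 of 8 lower members (Kif14, Kif15 and Kif26b), beside 16.3% of all genes. CCAAT occurred in 3 of 7 and 3 of 8, beside 34.5% of all genes. Kif1b held it at 2 places, while the windows of Kif18a and Kif20b held none of the 3 motifs. A match of such short letters is a description and not a binding site.

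The comparison of KO with Het rods asks how loss of Shp2 in rods bears on rod mRNAs. As in the study's own analysis, rod-depleted genes were first taken out. They were defined with the same Het rod libraries that are compared here. Of the 16 members left, Kif21b was higher and Kif9 lower in KO rods, and 14 were not called, while 15% of all 10174 genes tested were called (13.1% higher, 1.88% lower). For 4 of the 16 members the libraries did not overlap, beside 47.8% of all genes. With library size alone the median of all genes moved by -0.11, and 65.1% of calls were higher in KO rods, against 87.5% with TMM and 75.4% with the trend in GC content removed.

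Kif21b, a neuronal motor that also limits microtubule growth, had 2745, 3142 and 2697 in Het rods, compared with 3946, 4230 and 3607 in KO rods. All KO libraries lay above the Het libraries, and the log2 fold change was 0.56 (SE 0.10, adjusted p = 0.0037). Its share of the Kif21 family level was 38.9% ± 2.8 in Het rods, compared with 48.7% ± 2.8 in KO rods. Kif9 had 226, 226 and 235 in Het rods, compared with 149, 146 and 153 in KO rods, with narrow groups that lay apart and a log2 fold change of -0.50 (SE 0.12, adjusted p = 0.012), at the edge of the limit. Kif2a had 2547, 2152 and 2124 against 1596, 1607 and 1687, and Kif13a had 1365, 1414 and 1285 against 1566, 1588 and 1523. Both pairs of groups lay apart, with adjusted p of 0.010 and 0.015, but the log2 fold changes of -0.37 (SE 0.08) and 0.31 (SE 0.08) did not reach 0.5. Kif1b, the highest of the members in rods, had 34251, 27732 and 33833 in KO rods, and its log2 fold change of -0.02 had an interval of -0.22 to 0.18. The intervals of Kif5b (-0.15, -0.35 to 0.06) and Kif21a (-0.01, -0.20 to 0.17) were as narrow, whereas that of Kif11 (-0.37, -0.95 to 0.21) was wide. The calls were few and near the limit: Kif21b was 0.46 without KO rod replicate 2, Kif9 was -0.49 without Het rod replicate 3, and neither was then called.

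With the rod-depleted genes kept, 24 members could be tested. The genes added back had been picked by low values in the Het rod libraries that serve as the baseline here. That choice by itself favours KO values above Het values among them. Of these 4 were higher, beside 12% of 13144 genes, and 1 was lower, beside 1.56% (13.6% in either direction). The libraries of 8 of the 24 did not overlap, beside 43.4% of all genes. Kif1a (3263, 3685 and 3007 in Het rods, 4441, 4236 and 4863 in KO rods), Kif1c (327, 400 and 369 against 483, 587 and 457) and Kif3c (303, 349 and 334 against 432, 473 and 435) joined Kif21b and Kif9. Every KO library of Kif1a, Kif1c and Kif3c lay above every Het library. Their log2 fold changes in limma were 0.55 (SE 0.09, adjusted p = 0.0030), 0.58 (SE 0.13, adjusted p = 0.0094) and 0.55 (SE 0.11, adjusted p = 0.0060). With library size alone, none of Kif21b, Kif1a, Kif1c and Kif3c was called, and Kif9 (-0.61) was. Kif5c had 128, 144 and 163 in Het rods, compared with 190, 153 and 181 in KO rods. After scaling its groups did not overlap, but it was not called (0.37, SE 0.15, adjusted p = 0.093, limma). Kif5a had a log2 fold change of 0.25 (SE 0.16, adjusted p = 0.28, limma). Kif19a, with 6, 3 and 11 in Het rods, compared with 3, 19 and 24 in KO rods, had overlapping groups and a log2 fold change of 0.88 (interval -0.50 to 2.26). Of the mitotic motors 0 of 7 were called, with values between -0.37 (Kif11) and 0.37 (Kif20a). Among markers of other cells, 2 of 6 Müller glia genes (Apoe and Clu) and 1 of 4 amacrine genes (Slc6a9) were higher in KO rods, beside 12% of all genes. None was called among 5 ganglion cell, 6 bipolar, 6 cone, 3 endothelium and 6 lens genes. Summed shares were 0.00979% to 0.0141% and 0.0107% to 0.0160% for Müller glia, 0.00255% to 0.00282% and 0.00318% to 0.00403% for amacrine cells, and 0.00111% to 0.00165% and 0.00121% to 0.00209% for ganglion cells, in Het and KO rods respectively. Their part in the kinesin values was not tested.

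**Figure D4:**
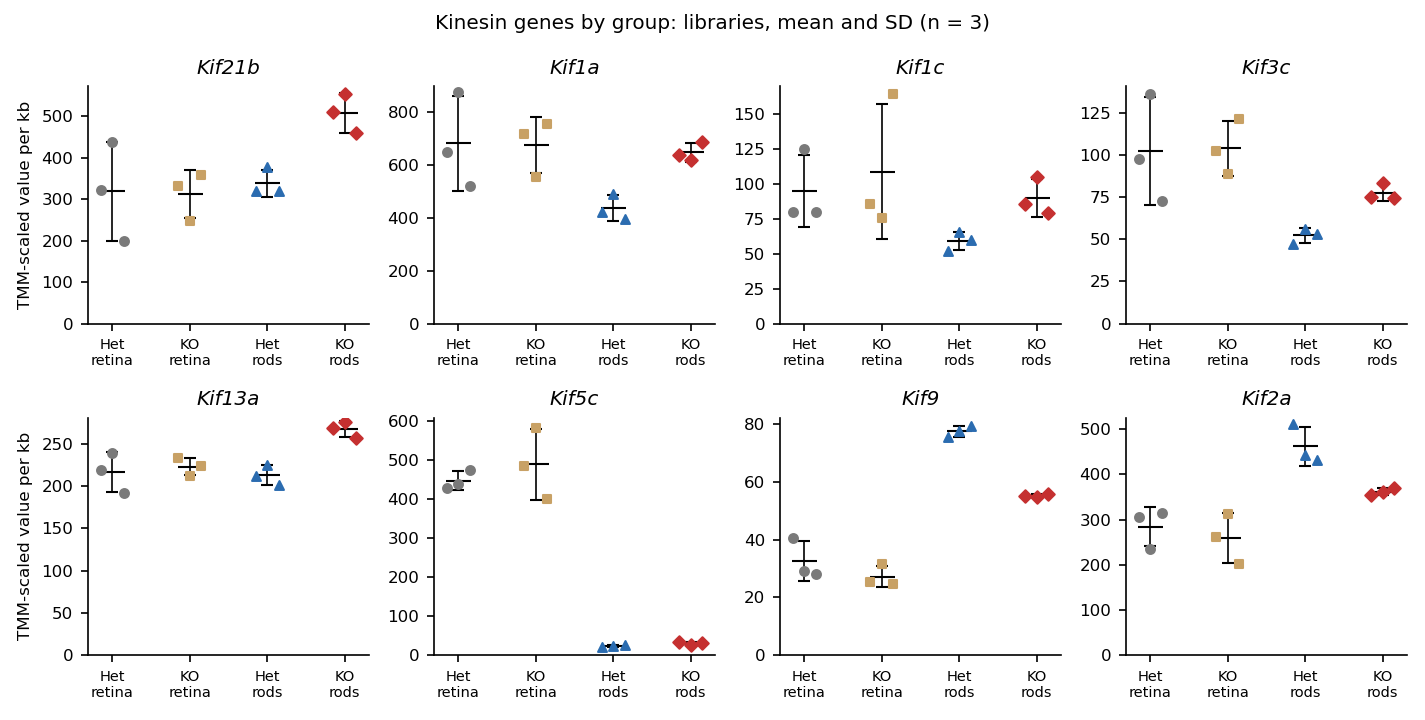
TMM-scaled values per kb of 8 kinesin genes in the 4 groups, with 1 point per library and the mean and SD (n = 3) in black. In KO rods Kif21b, Kif1a, Kif1c, Kif3c, Kif13a and Kif5c lie above all Het rod libraries and Kif9 and Kif2a below them, while the retina groups overlap.

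Base composition moved with the genotype of the rod libraries. From the 10% of genes with the lowest transcript GC content to the 10% with the highest, the median deviation of a library from the mean of the 6 rod libraries changed by -0.81, -0.23 and -0.42 (log2) in Het rods and by 0.42, 0.76 and 0.28 in KO rods. The GC content of the members' longest coding transcripts ran from 38.3% (Kif18a) to 61.7% (Kif26a). Across the 24 members, the log2 fold change of KO against Het rods was greater at higher GC content, with a Spearman coefficient of 0.73, beside 0.70 over 12991 genes. The points share the same 6 libraries, so these coefficients are descriptions. The trend was negative in every Het rod library and positive in every KO rod library, so it cannot be told apart from genotype. Removing it may also remove part of a genotype difference. Kif21b (56.7% GC), Kif1a (55.1%), Kif1c (54.5%) and Kif3c (51.6%) were among the richer in GC, and Kif2a (38.6%) among the poorest. Kif22 (53.7%) and Kif13b (52.5%) were richer than Kif3c, with log2 fold changes of only 0.02 and 0.04. Kif20b (39.4%) and Kif5b (41.1%), both poor in GC, had -0.13 and -0.15.

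With each library's trend in GC content removed, 0 of the 16 members were called by limma, beside 3.88% of all genes. At an unadjusted p below 0.05 in limma there were 4 of 16 members (Kif13a, Kif21a, Kif5b and Kif9), beside 3031 of 10174 genes. Kif21b had a log2 fold change of 0.12 (SE 0.07, adjusted p = 0.25) and Kif2a of -0.01 (SE 0.07). Kif9, at an intermediate 48.9% GC, had -0.39 (SE 0.11, adjusted p = 0.039), short of the limit of 0.5. With the rod-depleted genes kept as well, a setting chosen after seeing the data, Kif3c (0.53, SE 0.10, adjusted p = 0.0063) and Kif5c (0.55, SE 0.14, adjusted p = 0.025) were called among 24, beside 3.51% of all genes, and Kif1a (0.27, adjusted p = 0.063) and Kif1c (0.35, adjusted p = 0.048) were not.

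**Figure D5:**
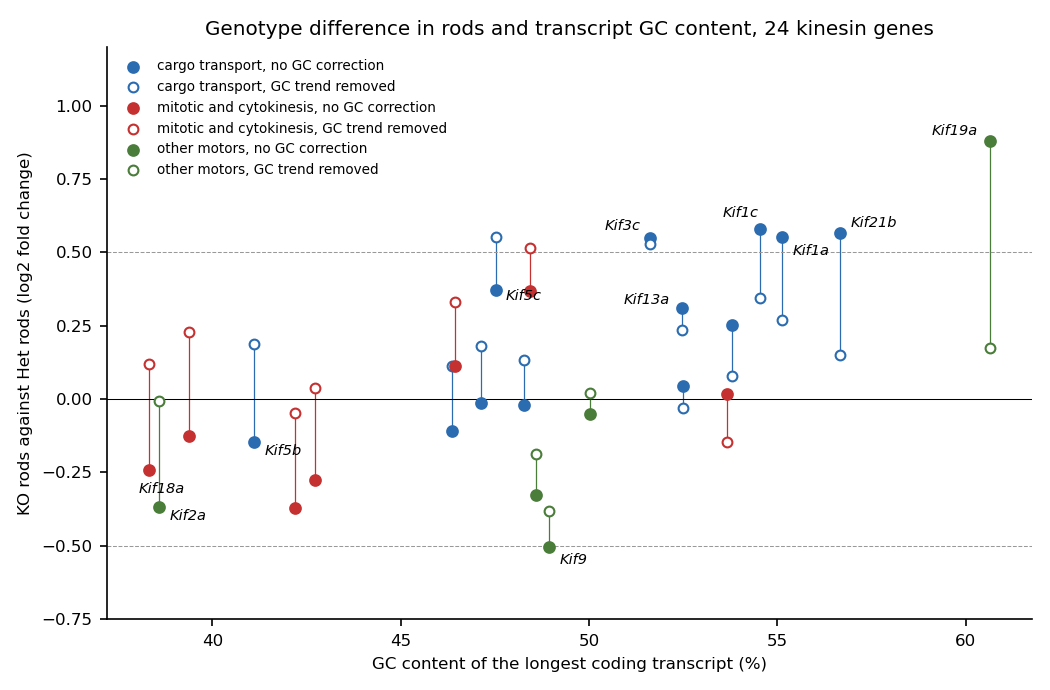
Log2 fold change of KO against Het rods for 24 kinesin genes, rod-depleted genes kept, against the GC content of their longest coding transcript (%), before (filled) and after (open) each library's trend in GC content was removed, coloured by role, with dashed lines at 0.5 and -0.5. Kif21b moves from 0.56 to 0.15, Kif2a from -0.37 to -0.01 and Kif3c from 0.55 to 0.53.

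In whole retina 0 of 28 members, and 0 of 16984 genes, were called between KO and Het mice by limma. At an unadjusted p below 0.05 there were 0 members and 141 genes. The log2 fold changes of the cargo motors lay between -0.12 (Kif16b) and 0.16 (Kif1c), and those of all members between -0.76 (Kif7) and 0.19 (Kif26b). Precision differed among them: the interval was -0.25 to 0.37 for Kif13a, -0.41 to 0.36 for Kif1b, -0.61 to 0.69 for Kif21b and -2.16 to 0.65 for Kif7. Kif4 was the 1 member whose groups did not overlap (111, 84 and 92 in Het, 71, 78 and 66 in KO; -0.39, SE 0.21), beside 3.54% of all genes. Kif21b ranged from 2029 to 4347 among Het retina libraries, in the same order as their trends in GC content of -0.83, -0.24 and 0.86.

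Whether the KO effect differed between rods and retina was tested over all 12 libraries. Again 0 of 28 members and 0 of 17192 genes passed by limma, with 2 members and 517 genes at an unadjusted p below 0.05. These 2 were Kif1a, for which the KO effect was 0.57 (SE 0.25, adjusted p = 0.89) greater in rods, and Kif7, a Hedgehog regulator of the primary cilium, with 2.37 (SE 0.88, adjusted p = 0.89). Kif7 is low, with 0, 1 and 5 in Het rods, 8, 13 and 4 in KO rods, 8, 20 and 16 in Het retina and 4, 4 and 20 in KO retina. For Kif21b the difference was 0.56 (interval -0.16 to 1.27), for Kif9 -0.24 (-0.77 to 0.29) and for Kif1b 0.04 (-0.35 to 0.43). This test is also that of whether rods differ from retina alike in both genotypes, so the members called in only 1 genotype, such as Kif3c (0.51, interval -0.09 to 1.11), were not shown to differ.

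The partners of these motors were read from lists of other genes, to be set beside the 22.7% of all genes that were higher and the 36.4% that were lower in Het rods. Of 7 kinesins outside the group, Kif3b (1.08, SE 0.13), which with Kif3a forms the kinesin-2 of the photoreceptor cilium, and the centromere motor Cenpe (0.86, SE 0.26) were higher in Het rods and Kifc2 (-1.96, SE 0.28) lower. Kif3a (0.35, SE 0.12) and Kif17 (0.06, SE 0.50) were not called. Of 22 light chains and adaptors, 6 were higher and 8 lower. The mitochondrial adaptors Rhot1 (1.64, SE 0.12) and Trak2 (1.18, SE 0.10), which link mitochondria to Kif5, and the kinesin-2 partner Kifap3 (0.58) were higher, along with Clstn1, Kifbp and Madd. Fez1 (-4.68, SE 0.21), Mapk8ip1 (-2.77), Jakmip1 (-2.47) and Hap1 (-2.20) were lower, along with Fez2, Mapk8ip2, Mapk8ip3 and Plekhm2. Of 23 genes of cytoplasmic dynein and dynactin, the motor of the opposite direction, 8 were higher, led by Dynlrb2 (2.07, SE 0.45), and 3 lower, led by the neuronal intermediate chain Dync1i1 (-4.85, SE 0.27).

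In KO against Het rods, 5 of the 14 light chains and adaptors tested were higher: the kinesin-1 light chains Klc3 (1.75, SE 0.32), Klc4 (1.07, SE 0.15) and Klc2 (0.77), with Clstn1 (0.74) and Rhot2 (0.60). Over all genes, 13.1% were higher and 1.88% lower. Of 6 outside kinesins, the minus-end motors Kifc1 (1.42, adjusted p = 0.0497) and Kifc3 (1.38) were higher, and Kifc1 was no longer called with the rod-depleted genes kept. Of 20 dynein and dynactin genes, Dctn1 (1.23, SE 0.15) and Dctn3 (0.52) were higher. With the trend in GC content removed, 1 gene of each list was called: Klc3 (0.83), Kifc3 (0.69) and Dctn1 (0.61), as calls over all genes fell from 1526 to 395. In whole retina, 0 of these 52 genes were called between the genotypes by limma.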

How the data were processed

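Whole-retina RNA and rod TRAP RNA were sequenced in 12 mouse libraries. The submitters' processing notes name CASAVA 1.8.2, HISAT2, DESeq2, edgeR and GRCm39, with no roles. The authors deposited 1 table of whole numbers, treated here as a signal proportional to read counts: each library appears to have been multiplied by 1 factor (0.756 to 1.456 in retina, 0.643 to 1.367 in rods) and rounded. This was inferred from the low values and is not stated. Where a factor is below 1, different read numbers share a value, so reads were not recovered and no count model was used. For Het retina replicate 3 the low values set no factor. The table held 0 columns of other samples.

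Values were scaled by TMM, raised by a pseudocount of 2 and compared as log2 values with limma 3.58.1 (R 4.3.3; trend and robust empirical Bayes), the 2 groups compared in each fit. Genes were tested if 3 or more libraries reached 10, adjusted to the median library total, and the values summed to at least 15, and p-values were Benjamini-Hochberg adjusted over all of them. Calls needed an adjusted p under 0.05 with a log2 fold change over 0.5 in size; for the interaction, over 12 libraries, the adjusted p alone decided. Fold changes on this scale understate those of low genes. Rod-depleted genes (lower in Het rods than Het retina) were removed before KO and Het rods were compared. With 3 against 3 libraries, the smallest exact permutation p is 0.1. On simulated libraries like those of KO and Het rods, with 12881 genes tested, the test recovered 86.29% of genes changed. Of its calls, 3.95% were false. A GC trend was then planted in the KO rod libraries alone, and every call it caused counted as false. By that rule 82.78% of calls were false if the trend was left in, and 4.73% once it was removed. The simulation cannot tell whether the trend in the data is technical, since it was planted as such. The interaction recovered 49.49%. These rates hold only for the size of change that was planted. They do not give the recovery of changes near the limit of 0.5, so members not called were not shown to be unchanged.

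Transcript length and GC content came from the longest coding transcript of GENCODE M21 (GRCm38), and GC content was known for 91.762% of genes. The trend of each library with it was a lowess curve (span 0.3). Promoters came from RefSeq (GRCm38.p6) and were not joined to coordinates of the deposited table. All members were named, the members and the gene lists having been chosen with earlier results of these data known. Libraries were named by genotype and fraction, with replicate numbers from the titles. Same-numbered Het rod and Het retina libraries deviated together (correlations 0.24 to 0.43), which met the limit of 0.1 in every pair. The other comparisons did not meet it in every pair. The statistics printed for Het rods against Het retina nonetheless came from the fit without this pairing, which called 9506 genes. With replicate number in the fit (the replicate block), 9946 genes were called. Alternatives were other scalings, pseudocounts, filters and fits, the replicate block, GC correction and leaving out each library. The summed level of the rod markers is not reported here. Python 3.11.15 with matplotlib 3.10.9 drew the figures.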

Additional observations from a re-analysis of the deposited data

How the results depend on the processing

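The number of kinesin genes called in Het rods against Het retina was 17, and 15 to 20 under 10 other settings and 14 to 18 when 1 library was left out. In KO rods against KO retina it was 12, with 12 to 15 and 12 to 14. Between KO and Het retina, and for the difference of the KO effects, it was 0 by limma under every setting run. With the replicate block the counts were 17, 12, 2, 0 and 0 in the order of the comparisons, so the pairing by replicate number changed no count of calls. Correlations of same-numbered libraries were 0.02 to 0.09 for KO and Het rods and -0.58 to 0.39 for KO and Het retina, which are treated as sharing only a number. For KO rods and KO retina they were 0.03 to 0.30, each library correlating best with its own number, a hint of pairing from the data that fell short of 0.1 in 1 pair. Between KO and Het rods the 2 calls became 1 with library size alone and with a pseudocount of 10, and 0 with the GC trend removed, with the replicate block and the GC trend removed, and with all 12 libraries in a single fit (in limma, 4 of 16 members then had an unadjusted p below 0.05 in each, beside 3031, 3045 and 2442 of 10174 genes). They became 3 with no filter on low values, Kif7 being added (1.54, adjusted p = 0.019, limma), 5 with rod-depleted genes kept, 4 with those genes defined over 12 libraries, and, in settings chosen after seeing the data, 5 with rod-depleted genes kept and the replicate block and 1 with them kept and library size alone. Leaving out 1 library gave 1 to 2. The single fit called 0 of 10174 genes, 2442 of them at an unadjusted p below 0.05, while 1526 genes were called at first, 395 with the GC trend removed, 449 with the block as well and 980 without Het rod replicate 1. No kinesin gene called in a comparison as reported changed direction in it under these settings. In KO rods against KO retina, where neither was called as reported, Kif2a was called with the GC trend removed (0.77) and was -0.063 with library size alone, and Kif1c was called with library size alone (-0.76) and was 0.10 without KO retina replicate 3. The 6 members that reached a value of 10 in no library were below the filter in every comparison. With no filter on low values, 1 of them, Kif18b, was called lower in KO rods than in KO retina. Its values were 1, 2 and 1 in KO retina and 0 in each KO rod library, near the floor.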
